A study of Macaca mulatta with 40 samples.

Results

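The 12 muscles with the highest share of reads on mitochondrial mRNAs were compared with the 12 muscles with the lowest share. They come from 36 ranked animals of a series of 40 rhesus monkeys (Macaca mulatta), each with 1 total RNA library depleted of ribosomal RNA from a thigh muscle, the vastus lateralis. The share is the summed count of the 13 mRNAs encoded in the mitochondrial genome, in percent of all counts of the library. Animals were ranked by this share alone, so the share and the counts of the 13 mRNAs are given as a description and were not tested between the groups. Animals labelled CTR received the control diet and animals labelled CALRES were calorie restricted. The 12 animals with a high share were 5 CTR and 7 CALRES monkeys aged 22.84 to 36.7 years, the 12 with a low share were 6 CTR and 6 CALRES monkeys aged 25.64 to 42 years, and the other 12 lay between them. CTR 2, CTR 8, CALRES 2 and CALRES 3 were kept out of the ranking. Library sets 1 and 2 are the animals numbered 1 to 10 and 11 to 20 in the labels, and set and diet were covariates of the comparison. The high-share group held 7 animals of set 1 and 5 of set 2, whereas the low-share group held 2 of set 1, both CTR, and 10 of set 2.

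The mitochondrial genome of mammals encodes 13 subunits of the respiratory chain. They are 7 subunits of complex I (ND1 to ND6 with ND4L), cytochrome b of complex III (CYTB), 3 subunits of complex IV (COX1 to COX3) and 2 of complex V (ATP6 and ATP8). These genes are transcribed as long precursors that are cut into shorter RNAs, and ND6 lies on the opposite strand to the other mRNAs. Below, each of the 13 mRNAs stands for the counts assigned to that gene, and whether it was a separate RNA was not tested. All other subunits of these complexes are made from nuclear mRNAs, and slow oxidative fibres of skeletal muscle hold more mitochondria than fast glycolytic fibres.

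ATP8 and ND4L are the mRNAs whose counts separated the animals most widely, so their sequences are shown first. Both are read from the RefSeq mitochondrial genome of Mmul_10, 5′ to 3′ on the plus strand, and capitals mark the bases that also belong to the next gene. ATP8 (chromosome MT:8357-8563, 207 bases) shares its last 46 bases with ATP6, and ND4L (chromosome MT:10461-10757, 297 bases) shares its last 7 bases with ND4.
ATP8: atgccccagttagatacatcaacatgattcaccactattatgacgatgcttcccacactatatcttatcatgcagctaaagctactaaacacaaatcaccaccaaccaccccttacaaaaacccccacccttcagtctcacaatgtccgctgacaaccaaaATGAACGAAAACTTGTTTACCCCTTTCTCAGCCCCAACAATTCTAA
ND4L: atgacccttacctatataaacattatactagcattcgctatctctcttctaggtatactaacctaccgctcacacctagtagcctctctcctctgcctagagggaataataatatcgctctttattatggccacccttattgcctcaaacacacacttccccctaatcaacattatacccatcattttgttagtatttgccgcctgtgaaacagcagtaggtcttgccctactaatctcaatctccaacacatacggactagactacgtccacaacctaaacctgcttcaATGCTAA

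Neither sequence was unique in the reference. In the nuclear chromosomes of Mmul_10, ATP8 had 3 copies and ND4L had 6 copies with at least 99% identity over at least 95% of the gene. Of these, 2 copies of ATP8 and 5 copies of ND4L matched every base of the mitochondrial gene. An identical copy of ATP8 lay at chromosome 3:16062147-16062353 on the minus strand, and an identical copy of ND4L at chromosome 2:68784225-68784521, also on the minus strand. Each of the other 11 mitochondrial mRNAs had 2 to 6 such copies, the closest of them with 0 to 2 mismatches. The sources used here do not state how reads that match several places were counted, nor which strand was counted, and the mitochondrial DNA of each animal was not analysed here. The values below are therefore counts assigned to the mitochondrial genes, and the part of near-identical copies in them was not tested.

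The share ran from 0.208% in CALRES 14 to 12.3% in CTR 15, a 59.3-fold range. It was 2.39% to 12.3% in the high-share group (median 4.77%) and 0.208% to 0.929% in the low-share group (median 0.576%), so the ratio of the medians was 8.28. Just outside the groups, CTR 16 had 1.84% next to the 2.39% of CTR 19, the last animal inside the high-share group, and CTR 10 had 0.940% next to the 0.929% of CTR 4, the last inside the low-share group. The lower bound thus lay between nearly equal shares. The step at the upper bound was wider, and a still wider step lay inside the high-share group, from 12.3% in CTR 15 to 8.67% in CALRES 4. Of the 4 animals kept out of the ranking, CTR 8 had 12.4%, CTR 2 had 5.90%, CALRES 2 had 5.71% and CALRES 3 had 1.69%.

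**Figure D1:**
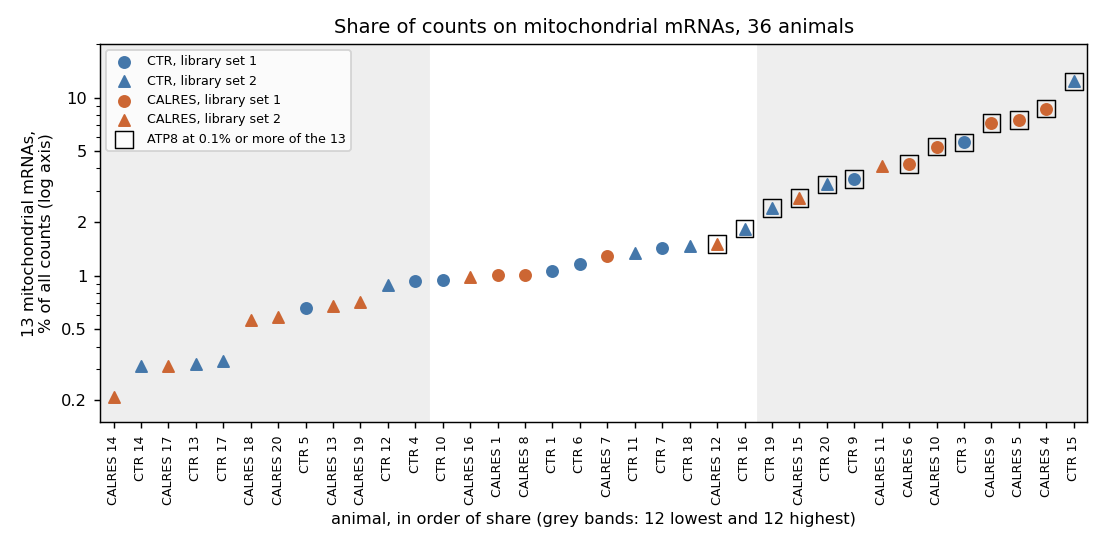
Share of all counts on the 13 mitochondrial mRNAs (percent, log axis) in each of the 36 ranked animals, with colour for diet, symbol for library set and a square around animals in which ATP8 made up at least 0.1% of the 13. Squares cover 11 of the 12 highest animals, 2 in the middle and none of the 12 lowest.

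The 3 genes that mark the comparison, ND1, COX1 and CYTB, did not follow the share to the same degree. COX1, a catalytic subunit of cytochrome c oxidase, had a median of 1.17% of all counts in the high-share group (0.492% to 4.01%) and 0.0590% in the low-share group (0.0205% to 0.148%), a 19.9-fold ratio without overlap. CYTB, the mitochondrially encoded subunit of complex III, had medians of 0.446% and 0.0124%, a 35.9-fold ratio, again without overlap. ND1, a membrane subunit of complex I, had medians of 0.390% (0.20001% to 1.56%) and 0.248% (0.0786% to 0.394%), a 1.57-fold ratio, and 7 of the 12 low-share animals lay above the lowest high-share animal. The low-share muscles thus differed from the high-share muscles widely in COX1 and CYTB and little in ND1, and the groups are called by their count share rather than by their content of mitochondria.

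The other complex I mRNAs spanned the whole range of ratios. ND2 was 6.22-fold higher by its medians, ND3 38.8-fold, ND4 92.5-fold, ND5 45.9-fold and ND4L 424-fold. ND4L held 2727 to 536851 counts in the high-share animals and 2 to 2308 counts in the low-share animals. ND6, the only one of the 13 on the opposite strand, was 2.99-fold higher, and its groups overlapped in 6 low-share animals.

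In complexes IV and V the ratio was 39.9 for COX2, 29.6 for COX3 and 6.63 for ATP6. ATP8 had 387 to 291370 counts in the high-share animals and at most 5 counts in the low-share animals, with 0 counts in 9 of the 12. Against a floor of 3 counts per library, its median share was at least 21578-fold higher in the high-share group. ATP6 shares 46 bases with ATP8 and still held 13202 to 178397 counts in the same low-share animals.

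The make-up of the mitochondrial counts fell into separate patterns rather than along the share. ND1 made up a median of 8.30% of the 13 in the high-share group and 44.0% in the low-share group, COX1 24.8% and 12.4%, COX2 15.4% and 5.10%, ND4 8.04% and 1.13%, and CYTB 9.70% and 2.56%. Over the 36 animals, ATP8 was at 0.399% to 1.23% of the 13 in 13 animals and at 0.00800% or less in 23. These are called animals with and without ATP8 counts below. Some of the 23 still held a few ATP8 counts, with 387 in CALRES 11 and at most 14 in the others. Where ATP8 was present, ND1 was at 5.73% to 10.5% and ND4L at 1.42% to 2.59% of the 13. Where it was nearly absent, ND1 was at 37.8% to 53.8% and ND4L at 0.233% or less. No animal lay between these ranges for ND1, ND4L or ATP8.

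**Figure D2:**
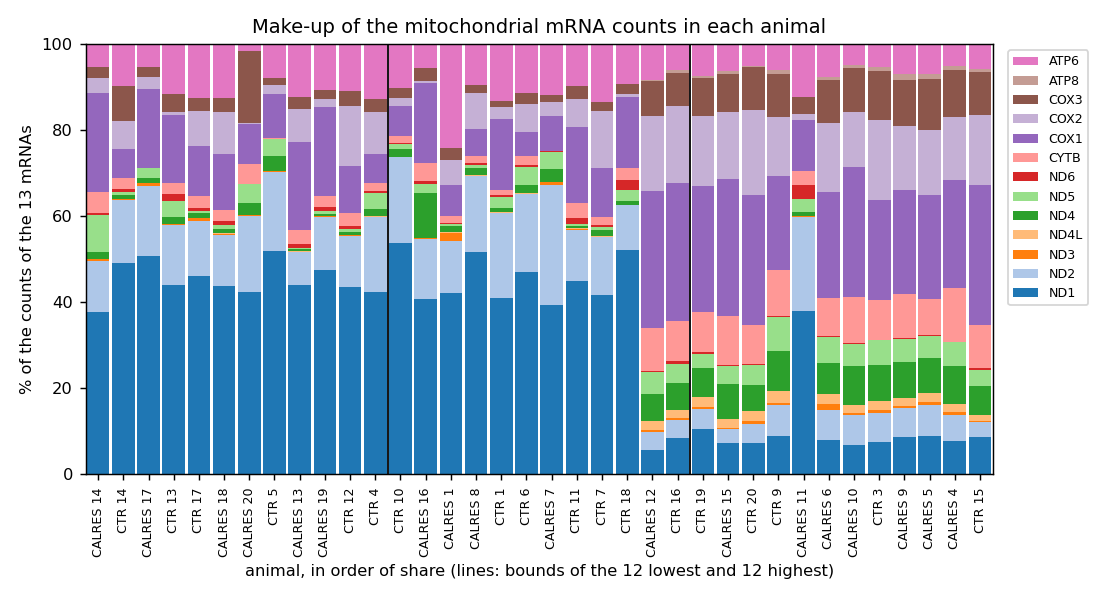
Percent of the counts of the 13 mitochondrial mRNAs on each mRNA (stacked bars, one for each of the 36 animals), ordered by share from lowest to highest. ND1 takes 37.8% to 53.8% in 23 animals, among them all 12 lowest and CALRES 11, and 5.73% to 10.5% in the other 13.

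The pattern with ATP8 was found in 11 of the 12 high-share animals, in CTR 16 and CALRES 12 at the top of the middle group, and in CTR 2, CTR 8 and CALRES 2 outside the ranking. The pattern without it held all 12 low-share animals, 10 of the 12 in the middle, CALRES 3 and, among the high-share animals, CALRES 11. CALRES 11, with a share of 4.11%, also had the lowest level of nuclear subunits among the high-share muscles: its nuclear subunits of complexes I to V summed to 3089 CPM (counts scaled to an equal total of nuclear counts) against 4422 to 15042 in the other 11, and its slow fibre genes to 331.5, next to 562 in CTR 9 and a group median of 15602. The pattern with ATP8 was found in 7 CALRES and 6 CTR animals and in 7 animals of set 1 and 6 of set 2, and the pattern without it in 11 CALRES and 12 CTR animals and in 9 of set 1 and 14 of set 2. Neither diet nor library set therefore separated the patterns. Among the animals with ATP8 counts the share ran from 1.51% to 12.3%, and among those without them from 0.208% to 1.46%, with CALRES 11 above this range.

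Library size did not separate the groups. Totals were 117043521 to 329942965 counts in the high-share animals and 102116857 to 234511131 in the low-share animals, so that all of the shares above rest on at least 432841 mitochondrial counts and the spread between animals, not counting error, sets their precision. The share of reads on signal recognition particle RNA, an abundant non-coding RNA, was 2.98% to 17.7% in the high-share and 2.02% to 15.3% in the low-share group. The summed level of the adipocyte markers used as a covariate was 0.719 to 33.9 CPM in the high-share and 0.657 to 53.5 in the low-share group.

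Diet was compared over the 36 animals, since the share itself was not chosen by diet. The mean share was 2.701% ± 2.78 (SD, n = 18) in CALRES and 2.21% ± 2.86 (SD, n = 18) in CTR animals, a difference of 0.492 percentage points (2-sided permutation test, p = 0.617). In set 1 the difference was 2.62 points (exact permutation test, p = 0.0606) and in set 2 it was -1.21 points (permutation test, p = 0.413), so the sign turned between the sets and neither passed the threshold of 0.05. None of the mitochondrial mRNAs tested by diet passed an adjusted p of 0.05 in edgeR, and ATP8 was removed by the filter on low counts. The background of that fit was 11.7% of 17175 genes at an unadjusted p under 0.05, and 0 at an adjusted p under 0.05.

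Age was related to the share with Pearson's r = -0.211 (permutation p = 0.217, adjusted over 2 relations 0.434) and Spearman's rho = -0.192 (permutation p = 0.264, adjusted 0.527) over the 36 animals, and r was -0.158 without the 2 animals farthest from the median age. Within set 1 r was -0.525 (permutation p = 0.0387, n = 16) and rho was -0.524 (permutation p = 0.0397). Within set 2 r was 0.00289 (permutation p = 0.992, n = 20) and rho was -0.259 (permutation p = 0.268). The relation in set 1 therefore did not pass the threshold in set 2 by either measure, and the difference between the sets was not tested. Total counts gave r = 0.0866 (permutation p = 0.609, adjusted 0.609) and rho = -0.0484 (permutation p = 0.780, adjusted 0.780) over the 36 animals, and r was -0.131 without the 2 animals farthest from the median total. Within set 1 r was 0.492 (permutation p = 0.0437, n = 16), and 0.195 without the 2 farthest animals, and within set 2 it was -0.131 (permutation p = 0.539, n = 20). Among the 23 animals without ATP8 counts r was -0.392 (permutation p = 0.0577) and rho was -0.435 (permutation p = 0.0390). The share of ND6 among the 13 was 0.472% ± 0.882 (SD, n = 12) in the high-share group and 0.627% ± 0.465 (SD, n = 12) in the low-share group, given as a description since the ranking used both counts.

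Across the nuclear genes, which the ranking did not use, few differed between the groups. edgeR's quasi-likelihood test, with library set and diet as covariates and Benjamini-Hochberg adjustment over 16873 genes, called 16 genes higher and 0 lower in the high-share muscles, a background of 0.0948%. All 16 lacked a symbol in the name table, and none of the 14389 tested genes with a symbol was called. The smallest adjusted p of a gene with a symbol was 0.0880. At an unadjusted p under 0.05 there were 8.64% of genes, 1149 genes higher (6.81%) and 308 lower (1.83%). DESeq2 called 69 higher (0.409%) and 17 lower (0.101%), of which 56 had a symbol (0.389% of those with one, 0.51% over all genes), and limma-voom called 15 higher and 2 lower, of which none had a symbol.

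The 2 called genes with the lowest p had levels that followed the share group. ENSMMUG00000061125 had 2544 to 15996 CPM of all counts in the high-share animals (median 7308) and 72.0 to 559.7 in the low-share animals (median 229), without overlap. ENSMMUG00000065373 had 712 to 4662 in the high-share animals (median 2767) and 63.7 to 443 in the low-share animals (median 184), again without overlap. The name table pairs neither with a symbol, and the ribosomal and transfer RNA genes of mitochondria have no symbol there either, so these 16 genes could not be told to be nuclear.

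Some unnamed genes went the other way and followed the pattern rather than the share. ENSMMUG00000028672 had 0.212 to 2.48 CPM in the 13 animals with ATP8 counts and 40.7 to 3317 in the 23 without them, with the highest value in CALRES 11. ENSMMUG00000028695 had 0.0794 to 0.983 in the first and 168 to 3597 in the second. They are named because they were the 2 genes that limma-voom called lower, and were chosen after their values were seen. Without CALRES 11, edgeR called 6 genes lower in the high-share group in place of 0.

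No nuclear subunit of the respiratory chain passed the test between the muscles with more and fewer mitochondrial counts. Of 68 tested genes of complexes I to V, 5 had a log2 fold change above 0 and 63 below 0, with a median of -0.25 against -0.01 over all 16873 genes. None had an unadjusted p under 0.05. The summed level of these genes was 3089 to 15042 CPM in the high-share group (median 8787) and 3964 to 17304 in the low-share group (median 8543), so the groups overlapped over nearly the whole range. The difference was not detectable at this spread between animals: the median of the 95% intervals ran from -1.02 to 0.57. The median came to -0.06, with 26 of 68 above 0, without CTR 17, to -0.02 without the library set in the model, and to 0.10 within set 1, where the low-share group has 2 animals. It came to -0.46 without CTR 20, to -0.47 without CTR 5, to -0.60 with the 9 highest against the 9 lowest, and to -0.73 within set 2, where 20 of 68 were lower at an unadjusted p under 0.05 against 4.37% of all genes. In bulk muscle RNA, fewer cells or fibres of a kind and less RNA in each of them cannot be told apart.

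By complex the medians were close to each other. They were -0.30 for 30 genes of complex I, -0.23 for 4 genes of complex II, which has no mitochondrially encoded subunit, -0.24 for 7 of complex III, -0.26 for 13 of complex IV and -0.20 for 14 of complex V. SDHA, the flavoprotein of complex II, had a log2 level of 5.45 to 8.09 CPM in the high-share animals (median 7.24) and 6.32 to 8.34 in the low-share animals (median 7.67), a log2 fold change of -0.30 ± 0.29 (SE, p = 0.318, edgeR). NDUFS7 of complex I had -0.51 ± 0.39, CYC1, the cytochrome c1 of complex III, -0.49 ± 0.53, and ATP5ME of ATP synthase -0.42 ± 0.37.

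**Figure D3:**
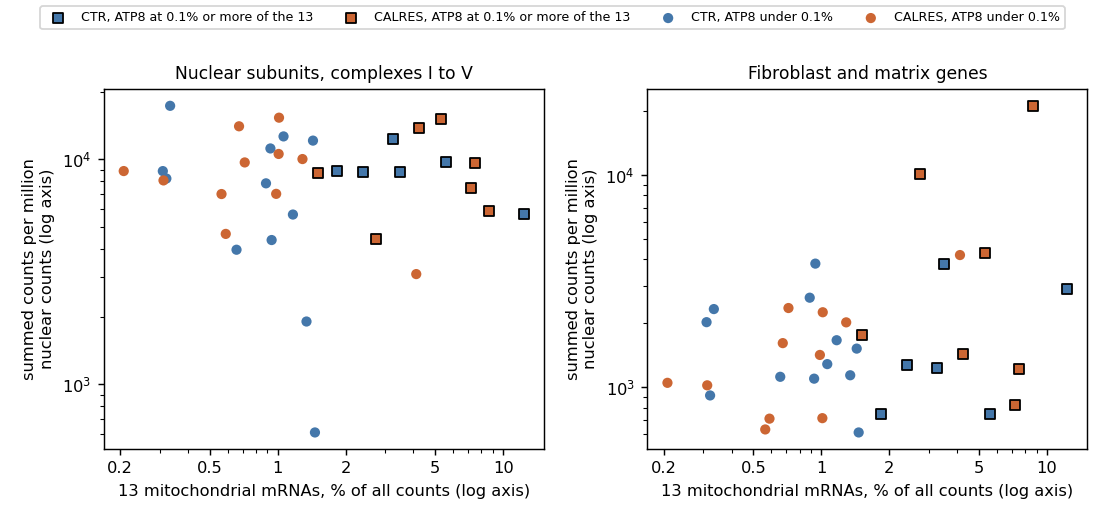
Summed level (CPM of nuclear counts, log axis) of the nuclear subunits of complexes I to V and of the fibroblast and matrix genes against the share of mitochondrial mRNA counts (percent, log axis) in the 36 animals, with squares for animals with ATP8 counts. The nuclear subunits span 3089 to 15042 in the 12 highest and 3964 to 17304 in the 12 lowest animals, and the 2 highest matrix values are CALRES 4 with 21123 and CALRES 15 with 10078.

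The genes that express the mitochondrial genome gave like values. Of 16 genes of mitochondrial DNA transcription and replication 3 were above 0 (median -0.14) and none had an unadjusted p under 0.05. TFAM, the factor that packs mitochondrial DNA and starts its transcription, had -0.22 ± 0.29, POLRMT, the mitochondrial RNA polymerase, -0.31 ± 0.34, and TFB2M, which opens the promoter with it, -0.45 ± 0.29. Of 24 genes of mitochondrial RNA processing and stability 3 were above 0 (median -0.22), among them LRPPRC, which stabilises mitochondrial mRNAs, with -0.38 ± 0.28. LRPPRC had a log2 level of 5.23 to 8.26 in the high-share animals (median 7.63) and 7.13 to 8.40 in the low-share animals (median 7.96). Of 70 mitoribosomal protein genes 16 were above 0 (median -0.15), and MRPS27 had -0.56 ± 0.30 (p = 0.0778).

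Regulators of mitochondrial biogenesis were split, with 7 of 24 above 0 and a median of -0.17. The log2 level of PPARGC1A, the coactivator PGC-1alpha, was 1.28 to 5.55 in the high-share animals (median 4.14) and 2.31 to 5.81 in the low-share animals (median 4.42). NRF1, a transcription factor for nuclear genes of the respiratory chain, had a log2 fold change of -0.17 ± 0.17. The 2 members with an unadjusted p under 0.05, against 1.83% of all genes lower at this threshold, were PRKAG3, a subunit of the energy sensor AMPK found mainly in fast glycolytic muscle, with -1.72 ± 0.63 (p = 0.0115, adjusted p over all genes above 0.05), and YY1, a transcription factor, with -0.38 ± 0.18 (p = 0.0442).

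Other mitochondrial pathways were also at or slightly below the median of all genes. The citric acid cycle had 4 of 20 genes above 0 (median -0.15) and MDH2, its malate dehydrogenase, had -0.31 ± 0.34. Fatty acid oxidation had 3 of 18 above 0 (median -0.20), and ACADM, the medium-chain acyl-CoA dehydrogenase, had -0.73 ± 0.32 (p = 0.0308). Genes of mitochondrial import and dynamics had 6 of 30 above 0 (median -0.12), and PINK1, a kinase that marks damaged mitochondria, had -0.63 ± 0.26 (p = 0.0232). Genes of the mitochondrial stress response had 6 of 20 above 0 (median -0.23), and none of them reached an unadjusted p under 0.05. ACADM and PINK1 were each the only member of their list with an unadjusted p under 0.05, against 1.83% of all genes lower at this threshold. None of these genes passed the adjusted threshold.

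**Figure D4:**
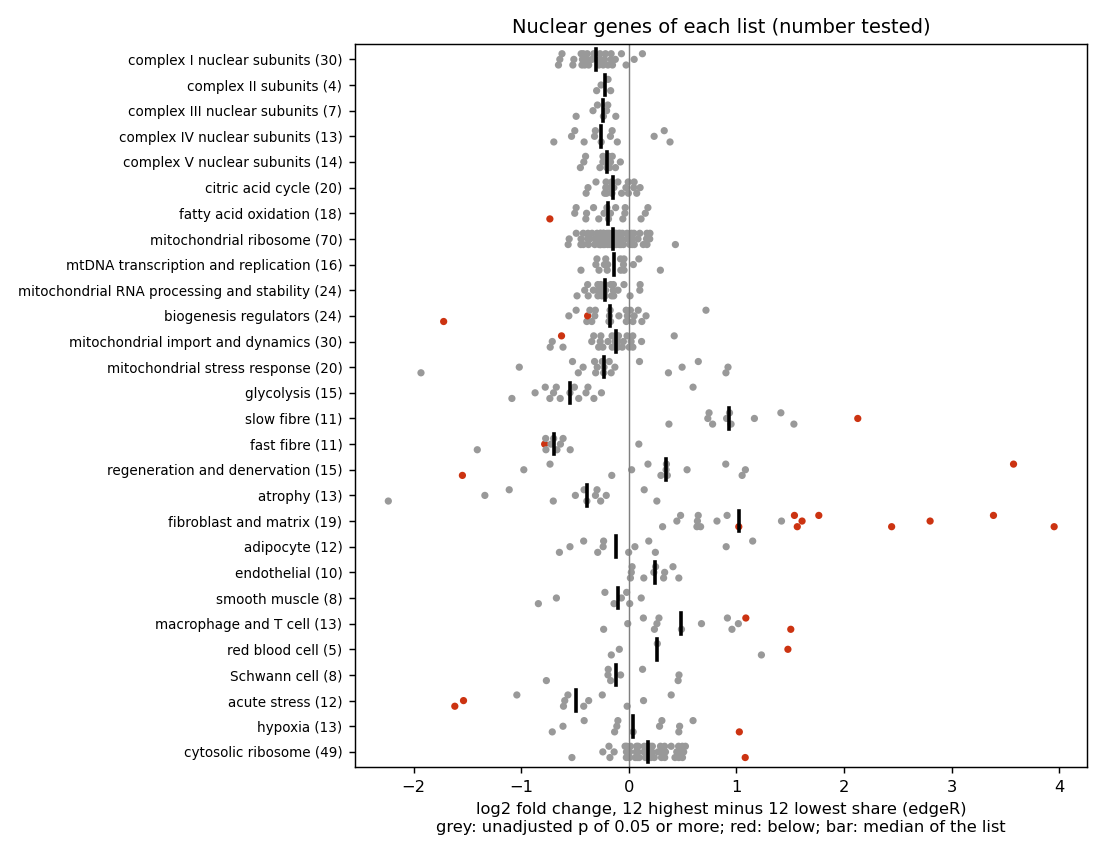
Log2 fold change (12 highest minus 12 lowest share, edgeR) of each tested nuclear gene of 28 lists, with a bar at the median of each list and red for an unadjusted p under 0.05. The lists of complexes I to V have medians of -0.30 to -0.20 and no red points, and all 19 fibroblast and matrix genes are above 0.

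Slow fibre markers lay above 0 in this comparison, and turned with the animals compared. All 11 slow fibre genes were above 0 (median 0.94), whereas the median was -0.48 with the 9 highest against the 9 lowest animals and -1.10 within the CALRES animals. With set in the model, the value within the CALRES animals rested on CALRES 11 and CALRES 15 against 6 low-share animals. CASQ2, the calsequestrin of slow and cardiac muscle, had a log2 level of 1.27 to 8.36 in the high-share animals (median 6.63) and 1.88 to 6.52 in the low-share animals (median 3.43). Its log2 fold change was 2.13 ± 0.69 (p = 0.00512, adjusted p above 0.05), with 11 of 12 high-share animals above the low-share median, and -0.62 with the 9 highest against the 9 lowest. MYOZ2, a slow fibre protein of the Z disc, had 1.53 ± 0.75 (p = 0.0503), or -0.88 with 9 against 9, and MYH7, the slow myosin heavy chain, 0.75 ± 0.85 (p = 0.388). Without CTR 20 the median of the slow list came to 0.33. MYH7 made up 0.0669% to 58.8% of the counts of 3 myosin heavy chains (MYH1, MYH4 and MYH7) in the high-share group (median 20.4%) and 1.15% to 51.1% in the low-share group (median 6.14%). With this share as a covariate, the median of the slow list was 0.07 and that of complexes I to V was -0.38.

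Of 11 fast fibre genes 1 was above 0 (median -0.70). TNNC2, the fast troponin C, had -0.78 ± 0.37 (p = 0.0467) and MYH1, a fast myosin heavy chain, -0.70 ± 0.51. Of 15 glycolytic genes 1 was above 0 (median -0.55), and the summed glycolytic level was 9922 to 49141 CPM in the high-share group (median 28085) and 14423 to 62418 in the low-share group (median 47122). The groups overlapped, with 1 of 12 high-share animals above the low-share median. GAPDH had -0.73 ± 0.40 (p = 0.0760) and PGAM2, the muscle phosphoglycerate mutase, -1.09 ± 0.62 (p = 0.0924).

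The widest differences on the lists were in genes of the extracellular matrix. All 19 fibroblast and matrix genes were above 0 (median 1.02) and 9 had an unadjusted p under 0.05, against 6.81% of all genes tested in this direction, while none passed the adjusted threshold in edgeR. The median of the list was 1.69 within the CALRES animals but 0.13 within the CTR animals. With set in the model, the value within the CALRES animals rested on CALRES 11 and CALRES 15 against 6 low-share animals. By library set it was 0.43 within set 1 and 0.92 within set 2. POSTN, a matrix protein of remodelling tissue, had a log2 level of -4.26 to 8.26 in the high-share animals (median 1.06) and -3.42 to 0.50 in the low-share animals (median -0.82), and a log2 fold change of 3.95 ± 1.20 (p = 0.00285). It was above the highest low-share animal in 6 high-share animals, CALRES 4, CALRES 6, CALRES 10, CALRES 15, CTR 9 and CTR 20, and inside or below the low-share range in the other 6. COL1A1, a chain of type I collagen, had levels of 3.42 to 11.6 (median 5.40) and 3.62 to 6.905 (median 4.69) and a log2 fold change of 3.39 ± 1.26 (p = 0.0124). It came to 1.03 without CALRES 15. FN1, fibronectin, had 1.61 ± 0.64 (p = 0.0194), and 0.83 without CALRES 15. By DESeq2, POSTN and COL1A1 passed the adjusted threshold (adjusted p = 0.0178 and 0.0383).

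**Figure D5:**
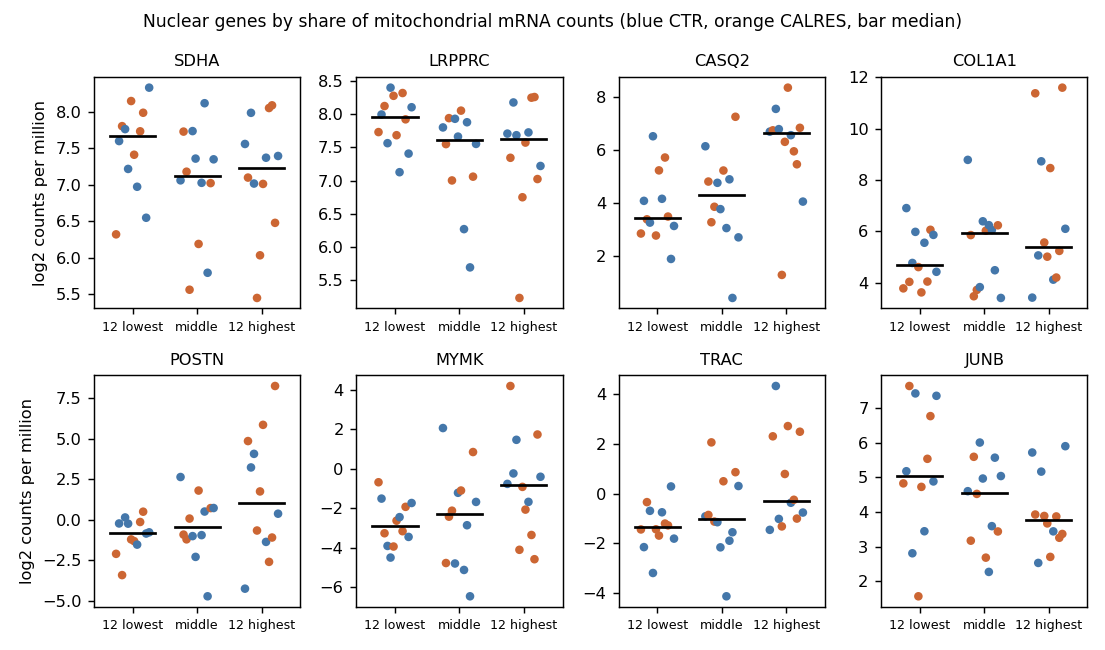
Log2 CPM of 8 nuclear genes in the 12 animals with the lowest, middle and highest share (12 points each, blue for CTR and orange for CALRES, with a bar at the median). COL1A1 and POSTN reach their highest values in a few high-share animals, and MYMK in CALRES 15, followed by CTR 10 of the middle group. SDHA and LRPPRC overlap between the groups and are lowest in CALRES 11.

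Among the high-share animals, CALRES 15, CALRES 4 and CTR 9 also held the highest values of MYMK, the membrane protein myomaker that fuses myoblasts. CTR 10 of the middle group had a log2 level of 2.069, above the 1.742 of CALRES 4 and the 1.472 of CTR 9. MYMK had a log2 level of -4.59 to 4.203 in the high-share group (median -0.84) and -4.50 to -0.68 in the low-share group (median -2.90). Its log2 fold change was 3.58 ± 0.90 (p = 0.00051, adjusted p above 0.05, DESeq2 adjusted p = 0.00396), and 1.85 without CALRES 15. The regeneration and denervation list as a whole had 11 of 15 genes above 0 and a median of 0.35, which came to -0.03 without CALRES 15. GADD45A, a stress gene of denervated muscle, had -1.55 ± 0.55 (p = 0.00943, DESeq2 adjusted p = 0.0350), and none of the 12 high-share animals was above the low-share median.

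Blood and immune cell markers were spread widely within each group. Of 13 tested macrophage and T cell genes 11 were above 0 (median 0.49, or 0.21 without CALRES 15) and 2 had an unadjusted p under 0.05, against 6.81% of all genes higher: CD68 of macrophages with 1.505 ± 0.66 (p = 0.0313) and CD8A of T cells with 1.09 ± 0.49 (p = 0.0347). Their summed level was 22.6 to 326 CPM in the high-share group and 10.8 to 385 in the low-share group, and none of the 14 genes was at 0 in all animals of a group. CD68 came to 0.72 without CALRES 15 and to 0.73 without CTR 9. TRAC, the constant part of the T cell receptor alpha chain, had the lowest p of all genes with a symbol and was chosen after its values were seen. It had log2 levels of -1.45 to 4.34 (median -0.30) and -3.19 to 0.29 (median -1.35), and a log2 fold change of 3.18 ± 0.68 (adjusted p = 0.0880), or 1.56 without CTR 20. RAB7B, a GTPase of late endosomes likewise chosen after its values were seen, had 2.01 ± 0.44 (adjusted p = 0.107), and 10 of 12 high-share animals were above the low-share median.

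The remaining lists had medians between -0.49 and 0.26. The endothelial list had 10 of 10 genes above 0 with a median of 0.24, or -0.20 without CTR 15, PECAM1 among them with 0.46 ± 0.25 (p = 0.0719), the adipocyte list had 5 of 12 above 0 (median -0.12, or 0.28 without CALRES 19), the smooth muscle list 2 of 8 (median -0.10) and the Schwann cell list 3 of 8 (median -0.12). The red blood cell list had 3 of 5 above 0 (median 0.26), the hypoxia list 7 of 13 (median 0.04) and the atrophy list 2 of 13 (median -0.39). With each animal left out in turn, these 3 medians ran from -0.09 (without CALRES 18) to 1.17 (without CTR 13), from -0.04 (without CTR 19) to 0.13 (without CTR 15), and from -0.72 (without CTR 4) to -0.10 (without CALRES 11). The Schwann cell median ran from -0.29 (without CALRES 14) to 0.10 (without CTR 20). Of 49 cytosolic ribosomal protein genes 40 were above 0 (median 0.17), with a median of -0.17 without CALRES 11. RPL3 of this list had 1.08 ± 0.42 (p = 0.0168), and 0.24 without CALRES 11. It was the only 1 of the 49 with an unadjusted p under 0.05, against 6.81% of all genes higher at this threshold. Of 12 genes of the acute stress response 2 were above 0 (median -0.49, or 0.14 without CTR 4). JUNB and FOSB, early transcription factors of the AP-1 family, had -1.62 ± 0.58 (p = 0.0105) and -1.54 ± 0.59 (p = 0.0152), and came to -0.98 and -0.32 without CTR 4.

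Within each diet the comparison gave unlike numbers of calls. Within the CALRES animals, 7 with a high and 6 with a low share, edgeR called 623 genes higher (3.62%) and 14 lower (0.0814%), together 3.71% of 17189. Within the CTR animals, 5 and 6, it called 13 higher (0.0749%) and 4 lower (0.0231%), together 0.098% of 17345. Among the genes called within the CALRES animals were COL1A1 (log2 fold change 5.87, adjusted p = 0.0406), MYMK (5.55, adjusted p = 0.0440) and RPL3 (2.43, adjusted p = 0.0448). All 6 low-share CALRES animals were of set 2 and 5 of the 7 high-share CALRES animals were of set 1. Set stayed a covariate of this fit, so its fold changes rested on the 2 high-share animals of set 2 against these 6. The 2 were CALRES 11 and CALRES 15, so the calls within the CALRES animals are not a result of 7 against 6 animals. In the test of the difference between the diets no gene passed an adjusted p of 0.05 (smallest 0.134), while 15.2% of genes had an unadjusted p under 0.05 there. The same test between the library sets gave 1 gene, with 8.87% at an unadjusted p under 0.05. The median of complexes I to V was -1.31 within the CALRES animals and -0.21 within the CTR animals, with 0 genes passing the adjusted threshold in either. At an unadjusted p under 0.05, 36 of 68 were lower within the CALRES animals, against 6.78% of all genes there, and 0 within the CTR animals.

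The share varied within each of the composition patterns, and nuclear genes were set against log2 share within each, with set and diet in the model. This was chosen after the patterns had been seen, and the slopes below are log2 changes per doubling of the share. Among the 13 animals with ATP8 counts edgeR called 12 genes rising and 0 falling of 19920 (0.0602%), and 9 of 68 genes of complexes I to V were above 0 (median slope -0.31). No gene of these complexes passed the adjusted threshold. All 10 endothelial genes had slopes above 0 there (median 0.62), each with an unadjusted p under 0.05, against 8.15% of all genes rising at this threshold. The fit on these 13 animals was not repeated with single animals left out, and CTR 15 has the highest share among them (12.3%). All 70 mitoribosomal genes (median -0.38) and all 49 cytosolic ribosomal genes (median -0.50) had slopes below 0, with 20 and 17 at an unadjusted p under 0.05 against 6.1% of all genes falling.

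Among the 23 animals without ATP8 counts, edgeR called 2200 genes rising (10.5%) and 1702 falling of 20919 (18.7% together). In the falling direction, where the background was 8.14%, 25 of the 68 genes of complexes I to V fell (median slope -0.61, 1 of 68 above 0) and 26 of 70 mitoribosomal genes fell. Other muscle lists had slopes of like size, with medians of -0.81 for slow fibre (2 of 11 fell), -0.62 for fast fibre (1 of 11), -0.69 for glycolysis (4 of 15), -0.70 for regeneration (4 of 15) and -0.65 for atrophy genes (3 of 13). NDUFA4 of complex IV fell by 1.11 ± 0.34 (adjusted p = 0.0279), ATP5MC2 of ATP synthase by 0.53 ± 0.15 (adjusted p = 0.0202), LRPPRC by 0.64 ± 0.17 (adjusted p = 0.0146) and SLC25A20, the mitochondrial carnitine carrier, by 0.97 ± 0.19 (adjusted p = 0.00164). BNIP3, a mitophagy receptor, fell by 0.97 ± 0.21 (adjusted p = 0.00437). Adipocyte markers moved along with them: 6 of 12 rose, ADIPOQ by 2.02 ± 0.40 (adjusted p = 0.00191), and their part in the other slopes was not tested.

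These calls rested partly on single libraries. Without CALRES 11, which has the highest share of these 23 animals, 671 genes rose (3.35%) and 348 fell (1.74%), 0 of 68 genes of complexes I to V passed the adjusted threshold, all 68 slopes were below 0 (median -0.58) and 25 had an unadjusted p under 0.05, against 15.9% of all genes. NDUFA4, ATP5MC2, LRPPRC and BNIP3 then had adjusted p of 0.124, 0.0747, 0.155 and 0.0568, whereas SLC25A20 still fell by 0.85 (adjusted p = 0.0381) and ADIPOQ rose by 2.33 (adjusted p = 0.00572). Without CTR 18, in which 72.3% of counts are signal recognition particle RNA and complexes I to V sum to 610 CPM, 1760 genes rose (8.01%), 911 fell (4.15%), and 2 of 68 genes of complexes I to V fell (median slope -0.55). Of the mitoribosomal genes 5 fell without CALRES 11 and 7 without CTR 18. Of the 12 adipocyte genes 5 rose without CALRES 11 and 2 without CTR 18, where ADIPOQ rose by 1.25 (adjusted p = 0.0297). NDUFA4 and ATP5MC2 had adjusted p of 0.0738 and 0.0520 without CTR 18. With the share taken over counts other than signal recognition particle RNA, 2287 genes rose (10.9%) and 1969 fell (9.41%), 31 of 68 genes of complexes I to V among them.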

How the data were processed

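Total RNA libraries depleted of ribosomal RNA were sequenced from the vastus lateralis of 40 monkeys. The authors trimmed the reads, used STAR for alignment to Mmul_10 and featureCounts with Ensembl gene models for counting, and the deposited values are whole raw counts for 35432 genes, 24186 of them with a symbol. Strand and multi-mapping settings are not given in the sources used here. Total counts per animal ran from 86580429 to 329942965 over the 36 ranked animals, and no 2 libraries were identical.

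The members, gene lists and alternatives were chosen with earlier results of these data known. Animals were ranked by the share of the 13 mitochondrial mRNAs. These 13 were taken out before the other genes, here called nuclear, were tested. Mitochondrial ribosomal and transfer RNA genes could not be told apart by name and were not taken out. Counts were filtered with filterByExpr (minimum count 10), TMM normalised and tested with edgeR 4.0.16 in R 4.3.3, with library set and diet as covariates, at a Benjamini-Hochberg adjusted p of 0.05. A p without the word adjusted is unadjusted, and intervals are at 95%. Log2 levels are CPM of nuclear counts with a prior count of 2. Single measures were compared by 2-sided permutation tests, exact with fewer than 10 animals in a group and with 100000 resamples otherwise. The named genes are the 13 mitochondrial mRNAs, the 3 genes with the lowest p of each list and a set of regulators, myosins and adipocyte genes, besides those said to be chosen after their values were seen. Of 552 list entries 513 matched a symbol. MYH2 was not among them. Nuclear copies were found with blastn 2.17.0 in the RefSeq assembly of Mmul_10, the build of the files. In simulated counts for 16873 genes of this comparison, 35% of 100 genes made to differ by 1 on the log2 scale were called, and 74% of 100 made to differ by 2. The genes made to differ were drawn from those with higher counts, and no set or diet effect was simulated. These rates therefore do not cover genes with low counts. Alternatives were DESeq2 1.42.0, limma-voom 3.58.1 with and without the replicate number as a block, other size factors and filters, other covariates, other rankings, each set and diet alone and each animal left out. Tests on genes with a symbol only, along log2 share with MYH7 share added, and within the composition patterns were chosen after seeing the data. Sex and body weight were not used. The labels do not say whether the same number marks a pair, and the fit reported used no pairing. The correlation of same-numbered animals was above 0.1 in 5 of 17 pairs, which cannot show whether animals were matched.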

Additional observations from a re-analysis of the deposited data

Results flagged for a closer look

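The difference between the groups depended on the library set for EGR1, an early growth response transcription factor. Its log2 fold change between high and low share differed by 5.12 between the sets (set 2 minus set 1, edgeR interaction term, adjusted p = 0.0194 over 16873 genes), and it was the only gene past the threshold, with 8.87% of genes at an unadjusted p under 0.05. The low-share group of set 1 consists of CTR 4 and CTR 5. Its log2 fold change was -4.17 within set 1 and 1.05 within set 2.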

How the results depend on the processing

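The count of genes with a symbol called (0 in the fit reported) was 56 by DESeq2, 538 within CALRES animals, 50 with all 40 animals ranked, 8 along log2 share with MYH7 share added, 4 with the 9 highest against the 9 lowest, with age added and with no filter beyond 1 count, 3 along log2 share over 36 animals and ranked without signal recognition particle RNA, 2 within set 2, and 1 with the 18 highest against the 18 lowest, with MYH7 share added, without diet, without library set and ranked within sets. Genes called higher (16) became 69 by DESeq2, 75 over 40 animals, 623 within CALRES animals, 36 with no filter beyond 1 count, 28 along log2 share, 37 with MYH7 share added to it, 2 within set 1 and 0 among genes with a symbol only. Genes called lower (0) became 17, 2, 14, 1, 1, 2 and 2 in the first 7 of these, 2 by limma-voom, 2 with the 18 highest against the 18 lowest, 1 ranked within sets and 4 within CTR animals. Each animal left out in turn gave 15 to 22 higher, 0 to 6 lower and 0 to 3 with a symbol, with 6 lower without CALRES 11 and 3 with a symbol without CTR 15. With the replicate number as a block, limma-voom called 15 higher and 2 lower, as without the block, and the block changed no call. Same-numbered animals had a median correlation of 0.00956 and others of -0.00925, which cannot show whether animals were matched. The numbers were not taken as a pairing because the labels do not name one.

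Among animals without ATP8 counts, 671 rose and 348 fell without CALRES 11, and 911 fell without CTR 18; genes of complexes I to V that fell (25) came to 0 and 2.

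The difference by diet was -1.21 points within set 2, -0.104 over 40 animals, and 0.141 to 1.09 with each animal left out. The ND6 difference (-0.155) was 0.244 within set 2 and 0.0150 ranked without signal recognition particle RNA, and -0.407 to -0.0556 with each animal left out. The relation with age passed the threshold within set 1 (r = -0.525), and within set 2 r was 0.00289 and rho was -0.259. For total counts r was 0.492 within set 1, -0.131 within set 2, and -0.203 and -0.392 among animals with and without ATP8 counts.

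Log2 fold changes that turned sign were TFAM (0.16 without library set, 0.16 within set 1), POLRMT (0.34 within CTR, 0.87 within set 1), MYH7 (-0.0215 with 9 against 9, -0.51 and -0.00352 with MYH7 share added to either fit, -1.25 within CALRES), CYC1 (0.26 within set 1), ATP5ME (0.0735 without library set, 0.11 within set 1), CASQ2 and MYOZ2 (-0.62 and -0.88 with 9 against 9), GADD45A (0.0654 within set 1) and CD68 (-0.0319 ranked within sets). The cause was not tested. Low-share values of ATP8 (0 to 5 counts) and ND4L (from 2 counts) rest on few counts.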
